A study of Homo sapiens with 3 samples.

Results

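The genes described here are the receptors EGFR, ERBB2 and ERBB3 and their ligands EREG, AREG, BTC, HBEGF, TGFA, EGF and NRG1, examined for binding of the transcription factors p63 and ZNF148 in FaDu cells. FaDu is an established cell line from a pharyngeal squamous cell carcinoma, and it was grown without treatment. Chromatin immunoprecipitation followed by sequencing (ChIP-seq) gave 1 library with an antibody against ΔNp63α, the N-terminally truncated p63 of basal squamous cells, and 1 with an antibody against ZNF148, a zinc finger factor known for sites rich in G and C. An input library without antibody completes the samples, and its signal was not analysed here. A peak was counted for a gene when its summit, the position of highest signal, lay within 50 kb of the gene's span in the hg19 genome build. This took 75 of the 61591 peak rows in both lists. Joining rows that hold several summits of 1 interval left 29 of 21520 p63 peaks and 42 of 37883 ZNF148 peaks. The windows of EREG and AREG overlap, and 3 p63 peaks lie in both; they are counted once in all totals. Each antibody has 1 peak list, which leaves the values without a replicate error or a test between conditions. Read depth is unknown from the lists.

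EGFR, ERBB2 and ERBB3 are receptor tyrosine kinases of the cell surface that signal as pairs. EGF, TGFA and AREG are ligands of EGFR, BTC, HBEGF and EREG bind EGFR and ERBB4, and NRG1 binds ERBB3 and ERBB4. ERBB2 has no known ligand and serves as the partner of the others. The ligands are made as membrane-anchored precursors that proteases release. In stratified squamous epithelium EGFR signalling drives growth and migration of basal cells, and several of the ligands are made by those cells themselves.

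RefSeq promoter sequences were found for 8 of the 10 genes, all but ERBB3 and NRG1. Those of ERBB2, EGF and a further TGFA start are not printed. The others are shown because ZNF148, a factor of GC-rich DNA, had peaks at the 5′ end of some of these genes and not of others. Each is the 250 bases before a transcription start in GRCh38.p14, 5′ to 3′ in the direction of the gene. Capitals mark the C-rich core CCCTCCC or its reverse complement GGGAGGG. The first 4 belong to genes with a ZNF148 summit within 2 kb of the 5′ end of the span, and EREG and AREG to genes without a listed one. ERBB3 also had such a summit, but its promoter sequence was not found. The last precedes an annotated start inside EGFR.
EGFR, chr7:55018767-55019016, plus strand: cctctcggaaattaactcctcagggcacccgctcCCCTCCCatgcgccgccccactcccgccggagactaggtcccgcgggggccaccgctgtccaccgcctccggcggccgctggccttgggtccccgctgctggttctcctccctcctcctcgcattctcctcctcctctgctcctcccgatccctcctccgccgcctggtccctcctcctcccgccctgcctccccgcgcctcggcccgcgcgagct
HBEGF, chr5:140346604-140346853, minus strand: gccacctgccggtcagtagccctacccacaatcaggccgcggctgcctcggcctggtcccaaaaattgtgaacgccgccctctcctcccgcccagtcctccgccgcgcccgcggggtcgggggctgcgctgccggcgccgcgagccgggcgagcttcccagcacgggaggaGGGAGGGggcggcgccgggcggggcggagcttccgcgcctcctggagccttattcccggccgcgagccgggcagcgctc
TGFA, chr2:70553827-70554076, minus strand: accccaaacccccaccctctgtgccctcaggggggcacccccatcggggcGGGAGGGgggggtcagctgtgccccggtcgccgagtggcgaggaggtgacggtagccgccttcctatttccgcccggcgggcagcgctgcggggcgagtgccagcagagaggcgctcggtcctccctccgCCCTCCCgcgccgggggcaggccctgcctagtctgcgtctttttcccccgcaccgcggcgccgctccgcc
BTC, chr4:74794524-74794773, minus strand: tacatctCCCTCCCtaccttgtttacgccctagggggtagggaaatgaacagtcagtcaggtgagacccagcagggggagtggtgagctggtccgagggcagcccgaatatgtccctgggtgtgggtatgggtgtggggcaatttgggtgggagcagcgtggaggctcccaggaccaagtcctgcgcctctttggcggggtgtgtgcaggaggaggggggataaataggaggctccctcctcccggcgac
EREG, chr4:74364895-74365144, plus strand: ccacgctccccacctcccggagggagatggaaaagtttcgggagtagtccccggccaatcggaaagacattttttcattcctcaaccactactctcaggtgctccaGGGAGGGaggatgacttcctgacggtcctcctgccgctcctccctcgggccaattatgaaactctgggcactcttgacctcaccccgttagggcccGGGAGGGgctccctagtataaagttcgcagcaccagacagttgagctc
AREG, chr4:74444886-74445135, plus strand: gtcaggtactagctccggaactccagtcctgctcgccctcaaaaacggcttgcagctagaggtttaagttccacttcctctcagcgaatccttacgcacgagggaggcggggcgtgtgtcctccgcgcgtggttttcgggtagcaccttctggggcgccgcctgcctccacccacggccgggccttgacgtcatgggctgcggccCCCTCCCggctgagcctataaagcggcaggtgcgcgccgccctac
EGFR, internal start, chr7:55109589-55109838, plus strand: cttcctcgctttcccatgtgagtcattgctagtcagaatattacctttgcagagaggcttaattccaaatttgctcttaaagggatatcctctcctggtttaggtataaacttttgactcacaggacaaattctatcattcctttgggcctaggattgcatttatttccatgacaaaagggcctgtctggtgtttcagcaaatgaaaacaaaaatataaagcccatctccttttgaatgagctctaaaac

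The C-rich core stood in promoters with and without a ZNF148 peak at the 5′ end. It occurred 1 time each before EGFR, HBEGF and BTC and 2 times before TGFA, and also 2 times before EREG and 1 time before AREG. It was not in the 250 bases before ERBB2, EGF, the internal EGFR start or a further TGFA start. Of all 35116 promoters in the table, 24.7% held it. The GC content was 73.6% for EGFR, 76.4% for HBEGF, 75.6% for TGFA and 62.0% for BTC. It was 58.0% for EREG, 65.2% for AREG, 65.6% for ERBB2 and 48.8% for EGF, and the median of all promoters was 58.0%. The half-site of the p53 family, to which p63 belongs, was searched as the 10 bases RRRCWWGYYY. R stands for A or G, W for A or T and Y for C or T. This half-site was in none of the 10 promoter sequences of these genes and in 5.57% of all promoters. Motifs were searched on both strands without mismatches, and a match is not a bound site. The peaks are in hg19 coordinates, so the sequence under them was not read.

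Every one of the 10 windows held at least 1 p63 peak, and 7 held a ZNF148 peak. Of genome stretches as long as these windows, 47.6 to 96.0% held a p63 summit and 54.6 to 95.8% a ZNF148 summit, depending on the length. The windows cover 2.64 Mb. p63 had 11.0 peaks per Mb there (95% Poisson interval 7.37 to 15.8), against 7.30 per Mb over all chromosomes. ZNF148 had 15.9 per Mb (11.5 to 21.5), against 12.8 over all chromosomes. These intervals, like those of the shares below, cover counting error only and treat neighbouring peaks as independent. The NRG1 window makes up 1226 kb of this length. The values over all chromosomes include stretches without genes, and windows around all other genes were not computed. A density above them is therefore not shown to be particular to this family.

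By count, the receptors held most of the ZNF148 peaks and the ligands most of the p63 peaks, without a test of the difference. The ligand windows are longer, 2.085 Mb against 0.552 Mb for the receptors, so the counts are given with densities. The 3 receptor windows held 8 p63 and 26 ZNF148 peaks, and the 7 ligand windows 21 and 16. ZNF148 thus had 47.1 peaks per Mb at the receptors (30.8 to 69.0) and 7.67 at the ligands (4.39 to 12.5), or 12.8 (6.39 to 22.9) at the ligands without NRG1. For p63 the values were 14.5 per Mb at the receptors (6.26 to 28.6), 10.1 at the ligands (6.23 to 15.4) and 18.6 at the ligands without NRG1 (10.6 to 30.2). ERBB2 had 12 of the 26 ZNF148 peaks at receptors, 5 of them from 0.3 kb before to 2.9 kb after the 5′ end of its neighbour GRB7. Without ERBB2, a comparison added after the data were seen, ZNF148 had 34.1 peaks per Mb at the receptors (18.6 to 57.2) and p63 17.03 (6.85 to 35.1). The genes of the 2 classes overlapped in ZNF148 density: it was 85.1 per Mb at ERBB2, 56.9 at ERBB3 and 24.3 at EGFR, and 43.9 at HBEGF, 20.1 at BTC, 14.5 at TGFA, 4.08 at NRG1 and 0 at the other ligands.

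Whole chromosomes also differ in ZNF148 density. It was 30.7 peaks per Mb on chromosome 17 of ERBB2, 15.3 on chromosome 12 of ERBB3 and 11.9 on chromosome 7 of EGFR. For the ligands it was 11.1 on chromosome 8 of NRG1, 11.005 on chromosome 5 of HBEGF, 9.74 on chromosome 2 of TGFA and 6.34 on chromosome 4 of EREG, AREG, BTC and EGF. The part of this in the values by gene was not tested. The windows also differ in neighbouring genes. RefSeq places 7 other protein-coding genes within 50 kb of ERBB2, 8 of ERBB3 and 0 of EGFR. For the ligands it is 2 each at HBEGF and EGF, 1 each at EREG and NRG1, and 0 at AREG, BTC and TGFA. The part of these neighbours in the densities of receptors and ligands was not tested either.

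**Figure D1:**
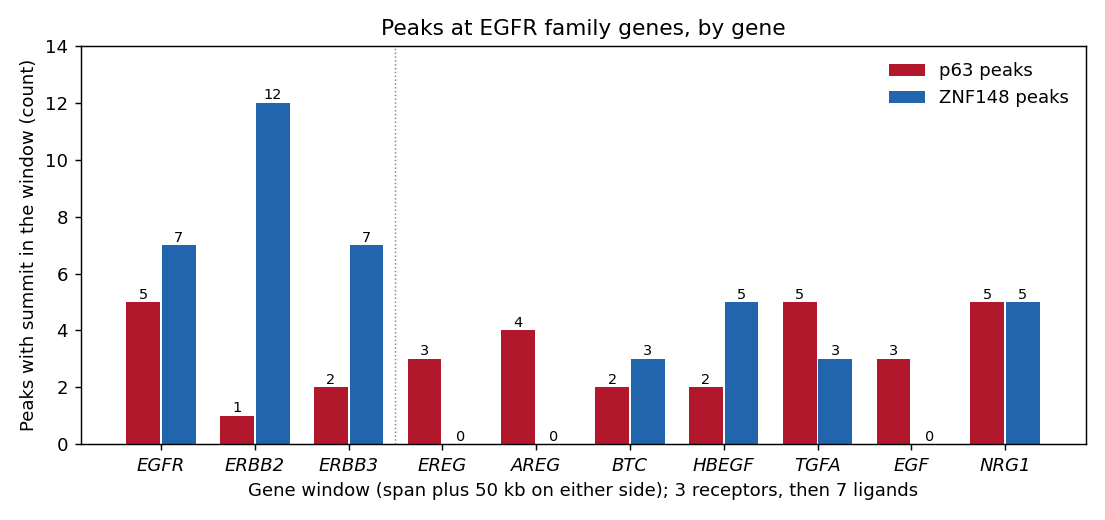
Number of p63 (red) and ZNF148 (blue) peaks with a summit in each gene's window, the span plus 50 kb on either side; windows differ in length. ERBB2 has 12 ZNF148 peaks and 1 p63 peak, while EREG, AREG and EGF have p63 peaks and no ZNF148 peak.

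ZNF148 summits lay near the 5′ end of the span in 5 of the 10 genes. Within 2 kb of the 5′ end there were 11 ZNF148 summits, 4 at HBEGF, 3 at EGFR, 2 at BTC and 1 each at ERBB3 and TGFA. Of all 4 kb stretches of the genome, 4.37% held a ZNF148 summit and 2.81% a p63 summit. p63 had such a summit at EGFR and at HBEGF, 1 each. The 5′ ends are known here to the nearest kb, so shorter distances are approximate. Only the outer end of each span was used, so a summit at a transcription start inside a gene was not counted. The share of all genes with such a summit was not computed, because an hg19 annotation was not used here. Inside the spans lay 14 of 29 p63 and 17 of 42 ZNF148 summits, or 48.3% and 40.5%, while the spans take up 63.7% of the windows. That share rests on the long NRG1 span. Without NRG1, 10 of 24 p63 summits (41.7%) and 12 of 37 ZNF148 summits (32.4%) lay inside spans that take up 39.3% of the windows. Exons, introns and untranslated regions were not distinguished.

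**Figure D2:**
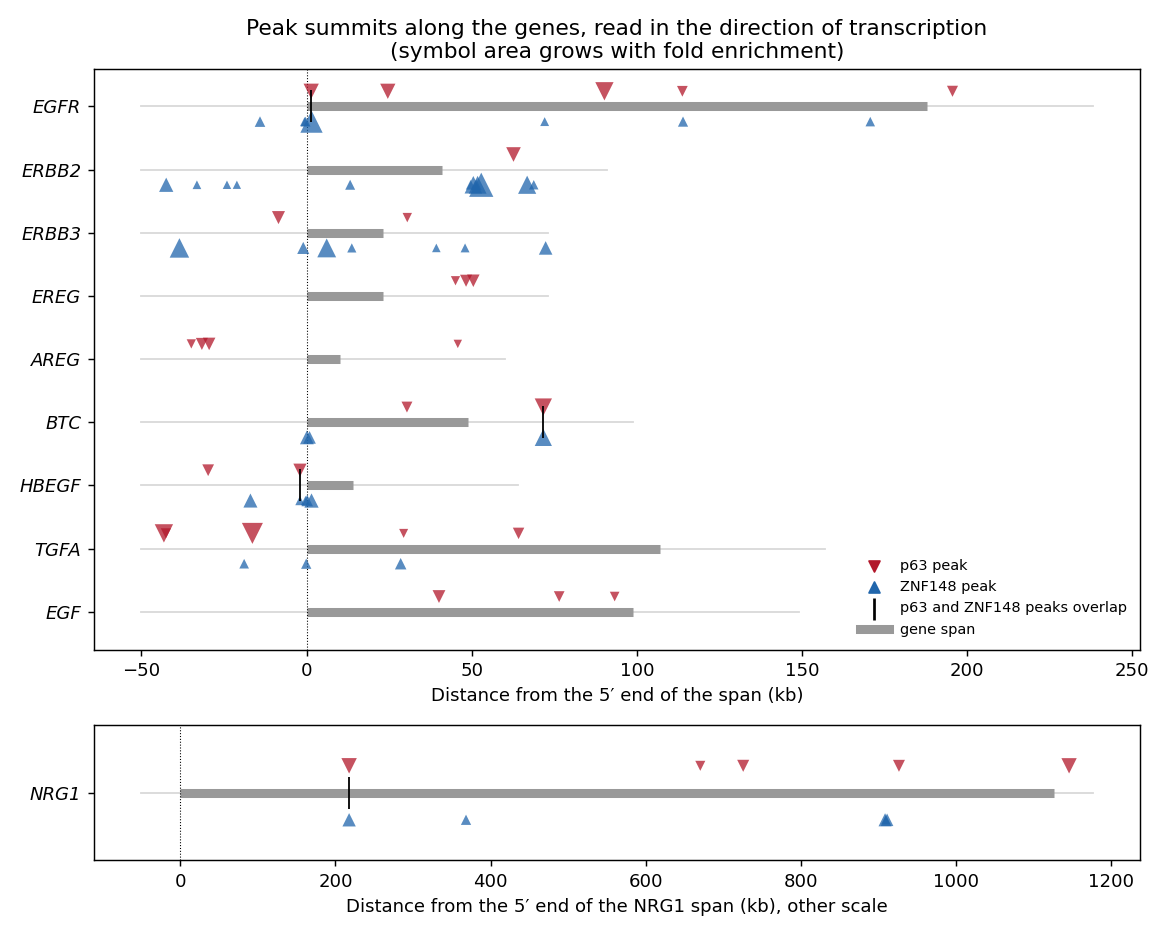
Summits of p63 (red, above) and ZNF148 (blue, below) along each gene, as the distance in kb from the 5′ end of the span; NRG1 has its own scale, symbol area grows with fold enrichment and black bars mark overlapping peaks. ZNF148 symbols stand at the 5′ end of EGFR, ERBB3, BTC, HBEGF and TGFA, and most p63 symbols stand farther off.

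EGFR, the receptor of EGF and most of the other ligands, held 5 p63 and 7 ZNF148 peaks in 288 kb on chromosome 7. Genome stretches of that length had a median of 2 peaks of either protein. No other protein-coding gene lies within 50 kb of it in RefSeq. The strongest ZNF148 peak, at 55088338 to 55088689, lay 1.5 kb inside the gene with a fold enrichment of 55.5, in the top 1.54% of the list by q value. A p63 peak at 55088298 to 55088577 overlapped it with a fold of 24.6, and the 2 summits were 48 bp apart. Both proteins thus had a peak within 2 kb of the 5′ end of the EGFR span, inside the gene. A further pair of weak ZNF148 peaks, with folds of 8.40 and 6.48, lay 0.3 and 0.6 kb before the 5′ end.

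The other p63 peaks of EGFR lay deeper in the gene. The strongest, at 55177096 to 55177396, was 90.2 kb from the 5′ end and had a fold of 36.4, in the top 8.85% of the p63 list. Its nearest ZNF148 summit was 18.1 kb away. In GRCh38.p14, RefSeq annotates a second EGFR start 90.8 kb after the first, the one whose upstream sequence is printed last above; coordinates were not converted between builds, and whether the peak covers that start was not determined. A p63 peak at 55111492 to 55111785 (fold 24.4) lay 24.6 kb from the 5′ end. Another, at 55200730 to 55200930 (fold 10.6), had a ZNF148 peak of fold 9.17 next to it, with summits 185 bp apart and no overlap. The last p63 peak (fold 11.4) was 7.6 kb past the 3′ end. The 3 remaining ZNF148 peaks of the window had folds of 6.23 to 10.1.

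ERBB2, the receptor without a known ligand, had the most ZNF148 peaks, 12 in 141 kb on chromosome 17, and 1 p63 peak. Stretches of that length had a median of 1 peak of either protein. A single ZNF148 peak lay inside the gene itself, 13.2 kb from the 5′ end of the span, with a fold of 8.70. Whether it lies at a transcription start inside ERBB2 was not determined. Upstream were 4 more at 21.1 to 42.5 kb, with folds of 5.05 to 20.9.

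The strong peaks of the window were downstream, at GRB7, the gene of an adaptor protein that binds activated receptors of this family. A run of 5 ZNF148 peaks lay from 0.3 kb before to 2.9 kb after the 5′ end of GRB7. Their folds were 7.94, 33.1, 10.4, 34.6 and 66.2 in that order. The last, at 37896694 to 37897400, had the highest fold of all 71 peaks described here and stood in the top 0.644% of the ZNF148 list. A further ZNF148 peak at 37910441 to 37910911 had a fold of 35.9, and the only p63 peak of the window, at 37906307 to 37906573 (fold 22.2), had its summit 4312 bp from it. The remaining ZNF148 peak, of fold 7.37, lay 27.8 kb past the 3′ end of ERBB2. RefSeq places 7 other protein-coding genes within 50 kb of ERBB2, so a peak in this window belongs to ERBB2 by position only.

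ERBB3, a receptor with a weak kinase that binds NRG1, held 2 p63 and 7 ZNF148 peaks in 123 kb on chromosome 12. Genome stretches of that length had a median of 1 peak of either protein. A ZNF148 interval with 3 summits, at 56472861 to 56473505, lay before the 5′ end. Its most significant summit was 1.0 kb upstream, with a fold of 14.2. Inside the gene, 6.1 kb from the 5′ end, a ZNF148 peak at 56479916 to 56480260 reached a fold of 39.0, in the top 6.78% of the list. The strongest in the window, at 56435332 to 56435674 (fold 41.7), was 38.5 kb upstream. The other 4 ZNF148 peaks had folds of 5.63 to 18.6. Neither p63 peak overlapped ZNF148 or lay inside the gene: 1 was 8.5 kb upstream with a fold of 17.0, and 1 was 7.5 kb past the 3′ end with a fold of 7.39. Within 50 kb of ERBB3 there are 8 other protein-coding genes in RefSeq.

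EREG and AREG, which encode epiregulin and amphiregulin and lie side by side on chromosome 4, had p63 peaks and no ZNF148 peak. Of stretches as long as their windows, 57.7% and 54.6% held a ZNF148 summit. The nearest ZNF148 summit was 140.4 kb from the 5′ end of EREG and 60.4 kb from that of AREG. Between the genes lay 3 p63 peaks, at 75276028 to 75276229 (fold 7.05), 75279195 to 75279459 (fold 14.2) and 75281431 to 75281638 (fold 15.5). Their summits were 22.1 to 27.5 kb past the 3′ end of EREG and 29.5 to 34.9 kb before the 5′ end of AREG. One more, with a fold of 5.29, was 35.8 kb past AREG. No listed peak of either protein lay inside EREG or AREG. Whether reads map uniquely to these genes was not examined, and the read filters are not given.

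BTC, which encodes betacellulin, held 2 p63 and 3 ZNF148 peaks in 149 kb, also on chromosome 4. Genome stretches of that length had a median of 1 peak of either protein. The strongest pair of overlapping peaks at a ligand was here, 22.7 kb past the 3′ end, where the p63 peak ran over 75648177 to 75648500 and the ZNF148 peak over 75648172 to 75648518. The folds were 32.2 for p63 and 31.9 for ZNF148, and the summits were 12 bp apart. At the 5′ end lay ZNF148 alone, with folds of 19.5 at 0.1 kb and 15.9 at 0.9 kb inside the gene. The other p63 peak, of fold 11.0, was inside the gene 30.4 kb from its 5′ end.

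HBEGF, which encodes heparin-binding EGF-like growth factor, held 2 p63 and 5 ZNF148 peaks in 114 kb on chromosome 5. Genome stretches of that length had medians of 0 p63 and 1 ZNF148 peaks. Of the ZNF148 summits, 4 lay within 2 kb of the 5′ end. The folds were 20.9 at 1.5 kb and 12.5 at 0.2 kb inside the gene, and 7.21 both at 0.3 kb and at 2.0 kb upstream. The last of these, at 139727873 to 139728103, overlapped a p63 peak at 139727847 to 139728100 with a fold of 17.7, and the summits were 24 bp apart. Of the 4 overlapping pairs in the windows, this one had the weakest peaks of both proteins. A second p63 peak (fold 13.2) lay 29.8 kb upstream, and the fifth ZNF148 peak (fold 20.2) 17.0 kb upstream, 12708 bp from it. RefSeq places 2 other protein-coding genes within 50 kb of HBEGF, so these peaks belong to it by position only.

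TGFA, which encodes transforming growth factor alpha, had 5 p63 peaks in 207 kb on chromosome 2, including the strongest of the 29. Stretches of that length had a median of 1 peak of either protein. The strongest, at 70797273 to 70797554, lay 16.4 kb upstream with a fold of 49.1, in the top 5.82% of the p63 list. A second strong one, at 70824088 to 70824417 (fold 36.6), was 43.2 kb upstream beside a weaker one of fold 9.33. Inside the gene were 2 p63 peaks with folds of 12.5 and 6.52. The 3 ZNF148 peaks were weaker, with folds of 9.37 at 0.1 kb upstream, 7.90 at 18.9 kb upstream and 12.5 at 28.5 kb inside the gene. None overlapped p63, and the nearest summits were 930 bp apart. No other protein-coding gene lies within 50 kb of TGFA in RefSeq.

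EGF, the founding ligand of the family, had 3 p63 peaks and no ZNF148 peak in 199 kb on chromosome 4, while 70.7% of stretches of that length held a ZNF148 summit. All 3 p63 summits were inside the gene, at 40.1, 76.5 and 93.3 kb from the 5′ end, with folds of 16.3, 10.4 and 7.95. The nearest ZNF148 summit to any of them was 58412 bp away. Within 50 kb of EGF there are 2 other protein-coding genes in RefSeq.

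NRG1, which encodes the neuregulins, spans 1126 kb on chromosome 8 and held 5 peaks of each protein. That was below the median of 8 p63 and 10 ZNF148 peaks for stretches as long as its window. An overlapping pair lay 217.7 kb from the 5′ end, at 31714563 to 31714831 for p63 (fold 25.2) and 31714560 to 31714792 for ZNF148 (fold 18.0), with summits 11 bp apart, the closest of the 4 pairs. No peak lay nearer to the 5′ end of the span. From 908.6 to 911.2 kb stood 3 ZNF148 peaks with folds of 17.3, 6.49 and 15.6, and 15346 bp beyond the last a p63 peak with a fold of 13.9. These distances are from the outer end of the span. Whether any of these peaks lies at a transcription start inside NRG1 was not determined. The other p63 peaks had folds of 8.83 and 14.1 inside the gene and 24.7 at 19.8 kb past its 3′ end, and the fifth ZNF148 peak had a fold of 9.38.

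**Figure D3:**
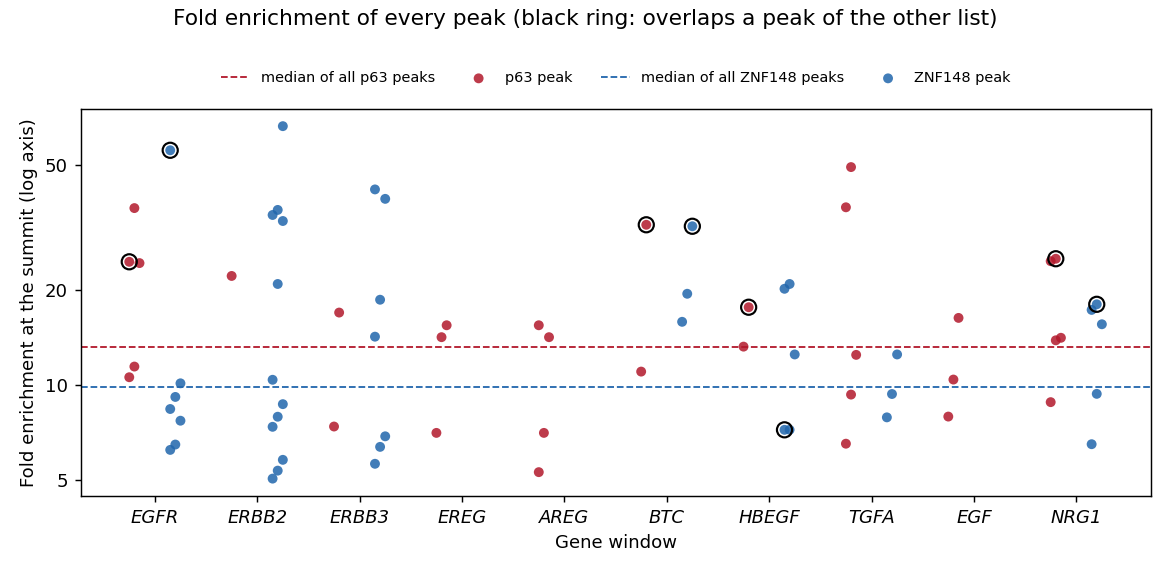
Fold enrichment on a log axis of every p63 (red) and ZNF148 (blue) peak by gene window; dashed lines are the medians of the whole lists and black rings mark overlapping peaks, and the 3 p63 peaks between EREG and AREG are drawn at both. The highest p63 fold is 49.1 at TGFA and the highest ZNF148 fold 66.2 in the ERBB2 window.

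Fold enrichment at these genes was near that of the whole lists. The median p63 fold was 14.1 (quartiles 10.4 and 24.4), against 13.2 (8.40 and 24.5) for all p63 peaks. The median ZNF148 fold was 10.3 (7.25 and 20.02), against 9.83 (7.21 and 16.6) for all ZNF148 peaks. A fold of at least 10 was reached by 22 of 29 p63 peaks, or 75.9% (95% Wilson interval 57.9 to 87.8%), against 65.1% of all p63 peaks. For ZNF148 it was 22 of 42, or 52.4% (37.7 to 66.6%), against 49.6% of all. Both intervals contain the value of the whole list. The top 10% of the lists by q value held 2 of the p63 peaks and 8 of the ZNF148 peaks. Both of the p63 peaks, at EGFR and TGFA, were without an overlapping ZNF148 peak.

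The series' title names cooperation of p63 and ZNF148, and overlap of their peaks addresses whether both were found at the same sites of these genes. Of the 29 p63 peaks, 4 shared at least 1 bp with a ZNF148 peak, 1 each at EGFR, BTC, HBEGF and NRG1. This is 13.8% (5.50 to 30.6%), against 21.2% of all p63 peaks. Summits within 25 bp were found at 3 of the 29, or 10.3% (3.58 to 26.4%), against 13.5% of all p63 peaks. Of the 42 ZNF148 peaks, 4 overlapped p63, or 9.52% (3.77 to 22.1%), against 12.1% of all ZNF148 peaks. With so few peaks the intervals are wide and contain the values of the whole lists, so a difference from the rest of the genome was not detectable.

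The distance from p63 to ZNF148 varied widely among the genes. The median distance to the nearest ZNF148 summit was 23.1 kb over the 29 peaks, against 11.7 kb over all p63 peaks. No ZNF148 summit lay within 25 kb of 11 of the 29, or 37.9% (22.7 to 56.0%), against 35.9% of all p63 peaks. All 11 were at ligand genes, namely the 3 between EREG and AREG, 1 at BTC, 1 at TGFA, 3 at EGF and 3 at NRG1. Conversely, 8 of 42 ZNF148 peaks had no p63 summit within 25 kb, or 19.0% (9.98 to 33.3%), against 45.5% of all ZNF148 peaks. Every window held a p63 peak, and the part of this in that share was not tested.

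**Figure D4:**
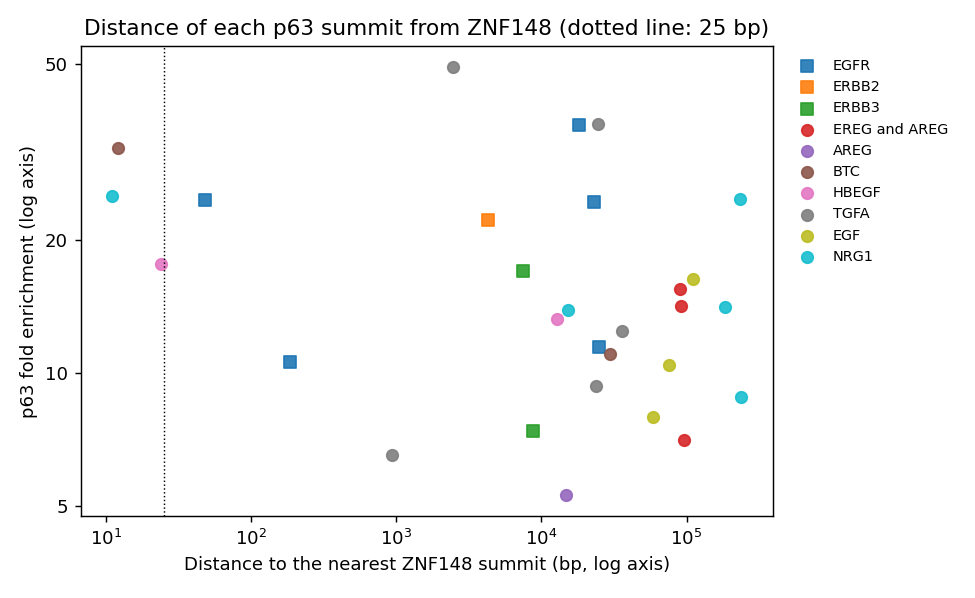
Fold enrichment of each of the 29 p63 peaks against the distance from its summit to the nearest ZNF148 summit in bp, both on log axes; squares are receptors and circles ligands. The pairs at NRG1, BTC and HBEGF lie left of 25 bp and the EGFR pair at 48 bp, while the strongest p63 peak, at TGFA, is 2475 bp from ZNF148.

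Other genes of the family and its pathway were examined in windows made the same way. These were 17 genes, comprising the receptor ERBB4, the ligands EPGN, NRG2 and NRG3, the proteases ADAM10 and ADAM17, the adaptors and exchange factor GRB2, SHC1, SOS1, GAB1 and GRB7, and the feedback and attenuating genes CBL, ERRFI1, LRIG1, SPRY2, SPRY4 and DUSP6. p63 peaks were found at 15 of 17, all but LRIG1 and SPRY2, and ZNF148 peaks at 16 of 17, all but EPGN. Of genome stretches as long as these windows, 45.9 to 96.4% held a p63 summit and 53.01 to 95.8% a ZNF148 summit. p63 had 42 peaks, or 8.32 per Mb (5.995 to 11.2), and ZNF148 98, or 19.4 per Mb (15.8 to 23.7), against 7.30 and 12.8 per Mb over all chromosomes. The latter values again include stretches without genes. A ZNF148 summit lay within 2 kb of the 5′ end of the span in 13 of 17 genes and a p63 summit in 3, namely ADAM10, SHC1 and DUSP6. Of all 4 kb stretches of the genome, 4.37% held a ZNF148 summit and 2.81% a p63 summit. The share of all genes with such a summit was not computed, so these counts are not shown to be particular to this pathway. SHC1, an adaptor of EGFR, had 4 p63 and 21 ZNF148 peaks, and CBL, a ubiquitin ligase that removes the receptor, 3 and 15. Neighbouring genes were not counted for these windows, so a peak belongs to a pathway gene by position only. EPGN, a ligand beside EREG, had 1 p63 peak and no ZNF148 peak. The p63 peaks that overlapped ZNF148 were 10 of 42, or 23.8% (13.5 to 38.5%), against 21.2% of all p63 peaks. They were spread over 8 genes, with up to 2 each at ADAM10 and SHC1. The windows of GRB7 and ERBB2 share 8 ZNF148 peaks and 1 p63 peak.

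**Figure D5:**
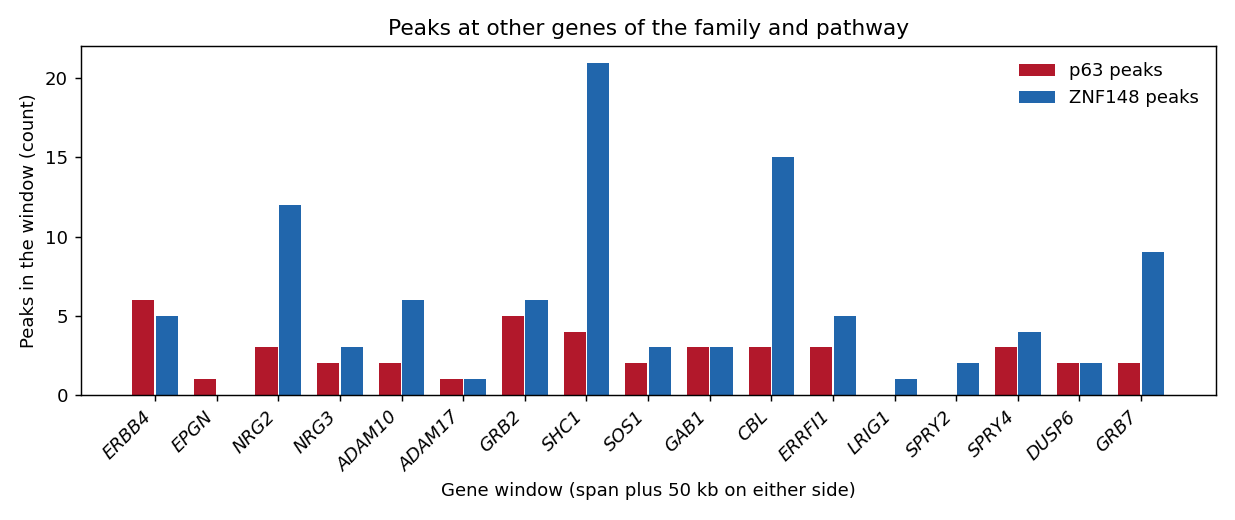
Number of p63 (red) and ZNF148 (blue) peaks in the windows of 17 other genes of the family and pathway; windows differ in length. SHC1 has 21 and CBL 15 ZNF148 peaks, and LRIG1 and SPRY2 have no p63 peak.

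The rule has its limit at 50 kb from a span. Nearest to it on the inside were a ZNF148 peak 49.4 kb past ERBB3 (fold 18.6) and a p63 peak 43.2 kb before TGFA (fold 36.6). Nearest on the outside were a ZNF148 peak 50.4 kb past AREG (fold 13.0) and a p63 peak 51.4 kb before ERBB3 (fold 4.73).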

How the data were processed

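Peak lists of 1 p63 and 1 ZNF148 ChIP-seq library were used; per the labels' protocols, the DNA came from 3 independent ChIP assays. Per the submitters' processing notes, MACS2 2.2.6, Bowtie2 2.3.4.3, SAMtools 1.7, MultiQC 1.12 and FastQC 0.11.9 were used with hg19, with no role or setting stated. The control library and the read filters are not given in the sources used here. Fold enrichment as deposited (a ratio to local background) and −log10 q come from the authors' peak caller, and q ranked peaks within a list. The deposited score repeats q. −log10 q began at 3.01 in the p63 list and 3.02 in the ZNF148 list, below which no site is listed. No reads or counts are given, so depth is unknown. Copy number was not taken into account.

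Rows with the same start and end were joined, with the most significant summit kept; a joined peak was counted where that summit met the rule. Chromosomes 1 to 22 and X were used for whole-list values. Overlap was checked with bedtools 2.31.1 and tested on simulated lists. Spans of the 10 genes were those of the selection rule, to the nearest kb; those of 18 pathway genes were entered by hand, and NRG4 was left out because its length differed by over 20% from the GRCh38.p14 table. The strand of each gene was entered by hand. All 10 genes were to be named, with the strongest peaks, the overlapping pairs and those nearest the 5′ end. The members and lists were chosen with earlier results of these data known. Alternatives tried were stricter limits on q and fold, other windows, every summit counted, other overlap limits and leaving out NRG1. Calculations used Python 3.11.15, numpy 2.4.6, pandas 2.3.3, scipy 1.17.1 and matplotlib 3.10.9.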

Additional observations from a re-analysis of the deposited data

How the results depend on the processing

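Among 48 values computed again, 43 lay inside the main value's counting interval (for counts, within 1.5 times it) and 5 lay outside. With a −log10 q of at least 10 the median ZNF148 fold was 17.7, and with a fold of at least 10 it was 19.8 over 22 ZNF148 peaks instead of 42; both follow from removing weak peaks. With windows of 100 kb there were 67 ZNF148 peaks. With summits within 10 bp no p63 peak had a close ZNF148 summit (0%), since the closest pair was 11 bp apart. The share of p63 peaks overlapping ZNF148 ran from 11.1% to 17.4% under the alternatives. No paired analysis was possible because each antibody has 1 list and no result comes from a test. Depth is unknown, so the lists' cut at low q limits which weak sites are seen.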

Other observations

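Between 50 and 100 kb from the spans lay further strong peaks. A p63 peak 91.9 kb before the 5′ end of BTC, at 75811751 to 75812049 on chromosome 4, had a fold of 56.1, in the top 3.63% of its list and above every p63 peak in the windows. A p63 peak 95 kb past the 3′ end of HBEGF, at 139616846 to 139617172 on chromosome 5, had a fold of 42.3. Neither overlapped ZNF148. Another overlapping pair lay 51.7 kb (p63 summit) before EGFR, where p63 had a fold of 13.7 and ZNF148 of 22.3 with summits 78 bp apart, and one past ERBB2, with folds of 6.85 for p63 and 9.55 for ZNF148 and summits 143 bp apart. These peaks were chosen after their values were seen.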
